A study of Homo sapiens with 8 samples.

Results

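The MYC, MAX and MXD network was followed in a human esophageal epithelium treated with an inhibitor of oxygen-sensing enzymes. Its members are 10 genes chosen by name for their function (MYC, MAX, MXI1, MXD1, MXD3, MXD4, MNT, MGA, MLX and MLXIP) out of 25369 genes listed in the expression table. All 10 were listed, and 9 passed the filter on low values that the tests required. MXD3 did not and is described by its levels only.

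MYC is a transcription factor of growth and proliferation that binds E-box DNA only as a dimer with MAX. The MXD proteins (MXD1, MXI1, MXD3 and MXD4) and MNT compete for MAX and recruit the SIN3 and NCOR corepressors to E-boxes, and MGA joins MAX in a Polycomb complex. MLX is the MAX-like partner of MLXIP (MondoA), which responds to glucose-derived phosphosugars. MXD1 is known to rise as keratinocytes leave the cell cycle, and MXI1 is known as a target of hypoxia-inducible factors (HIF) that opposes MYC.

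EPC2-hTERT is an esophageal keratinocyte line of wild-type genotype, immortalized with telomerase, and all libraries came from this single line. The cells were grown on membranes in high-calcium medium and then exposed to air, the air-liquid interface culture in which they stratify. The vehicle group (4 libraries) received DMSO, and the other group (4 libraries) received dimethyloxalylglycine (DMOG) at 1 mM over 18 h. This cell-permeable 2-oxoglutarate analogue inhibits prolyl hydroxylases as a class and stabilizes HIF alpha subunits. Total RNA was sequenced, and the read totals behind the RPKM values were 31245695 to 39931833 per library. Whether the replicates are separate cultures is not stated in the labels. The p-values therefore cover only the spread among these libraries, and that spread may be technical.

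One DMOG library stood near the vehicle libraries. ENO2, a glycolytic HIF target, read 0.795 to 1.91 RPKM in vehicle and 70.2, 1.93, 23.7 and 157 RPKM in DMOG replicates 1 to 4. CA9, carbonic anhydrase IX and another HIF target, read 0.129 to 1.29 RPKM in vehicle and 25.2, 2.56, 9.97 and 57.5 RPKM in DMOG. RPKM is a read count scaled to gene length and to the library's total. The group means in the authors' deposited table were made from replicates 1, 3 and 4 of each group, without either replicate 2, and the sources used here give no reason. Both comparisons are given: all 8 libraries, and the 6 libraries behind the authors' means. Esophageal keratinocyte identity was checked on markers. The 6 basal markers (such as KRT5 and KRT14) summed to 8484 to 16630.5 RPKM in vehicle and 11764 to 14065 RPKM in DMOG, and the 11 suprabasal markers (such as KRT4, KRT13 and IVL) to 8159 to 10528 and 7712 to 13505 RPKM. The fibroblast markers DCN and LUM, the endothelial marker CDH5 and the glandular marker MUC6 were listed at 0 in all 8 libraries, and the leukocyte marker PTPRC was at or below 0.00395 RPKM. A listed 0 has limits in this table, since EIF4A1, which every cell uses, was also listed at 0 in all 8. The 6 fibroblast markers summed to 8.76 to 14.1 RPKM in vehicle and 19.0 to 32.0 RPKM in DMOG, nearly all of it COL1A1, and the 5 leukocyte markers to 42.8 to 74.2 and 60.9 to 94.0 RPKM, nearly all of it CD68. COL1A1 (limma-trend, adjusted p = 0.00535) and CD68 (0.0388) were higher over 6 libraries, and their part in the results below was not tested. The CD68 call ended as deposited, with no filter, and on leaving out vehicle replicate 1 or 4 or DMOG replicate 1 or 3 (0.0687 to 0.121). The 4 endothelial markers summed to 0.870 to 1.97 RPKM and the 4 columnar ones to 93.9 to 141 RPKM over all libraries. The columnar sum was nearly all KRT18 (58.3 to 107 RPKM) and KRT8 (21.6 to 44.2 RPKM), and TFF1 was at or below 0.0595 RPKM.

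The MXI1, MXD1, MLX, MNT and MXD4 promoter windows are shown because the first pair moved together and the last 3 carry the letters of an E-box. RefSeq windows (build GRCh38.p14, 250 bases before to 50 after a transcript start) were found for 9 members, 14 windows in all, and the MYC window is not shown. They were searched on both strands for ACGTG and GCGTG, forms of the core of HIF response elements, and for CACGTG, the E-box, which holds ACGTG on each strand. Among 35116 windows of this length, 21.4% held ACGTG, 36.5% held GCGTG and 7.26% held CACGTG. The members held them in 6, 8 and 3 of 14 windows. The 250 bases before the start follow, 5′ to 3′ on the gene's strand, with matches in capitals. For MXI1, 2 of its 3 windows are shown.
MXI1, chr10:110209981-110210230, plus strand: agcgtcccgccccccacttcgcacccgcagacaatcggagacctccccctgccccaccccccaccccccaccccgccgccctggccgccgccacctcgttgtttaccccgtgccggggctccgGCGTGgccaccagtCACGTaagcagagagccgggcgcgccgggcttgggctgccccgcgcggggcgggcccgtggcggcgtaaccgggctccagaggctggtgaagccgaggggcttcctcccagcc
MXI1, chr10:110225746-110225995, plus strand: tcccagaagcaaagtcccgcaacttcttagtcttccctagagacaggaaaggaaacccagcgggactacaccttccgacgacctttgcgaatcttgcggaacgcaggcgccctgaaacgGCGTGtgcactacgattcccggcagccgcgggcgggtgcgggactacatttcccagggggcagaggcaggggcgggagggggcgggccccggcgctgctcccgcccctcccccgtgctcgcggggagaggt
MXD1, chr2:69914859-69915108, plus strand: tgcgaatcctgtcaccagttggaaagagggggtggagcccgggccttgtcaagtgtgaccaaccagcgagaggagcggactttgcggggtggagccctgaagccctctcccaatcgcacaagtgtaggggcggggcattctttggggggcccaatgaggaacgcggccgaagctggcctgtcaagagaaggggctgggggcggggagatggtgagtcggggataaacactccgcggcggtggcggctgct
The first MXI1 stretch holds GCGTG beginning at position -127 from the start and, at -113, ACGTG on the opposite strand, seen here as its reverse complement. The second holds GCGTG at -131. The remaining MXI1 window and the MXD1 window hold none of the 3 motifs, which says only that these letters are not in these windows.

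The E-boxes of MLX, MNT and MXD4 are shown in 30 bases each, with CACGTG in capitals.
MLX, chr17:42567038-42567067, plus strand: gcgggcgcgggtCACGTGggcacgccaccc
MNT, chr17:2401236-2401265, minus strand: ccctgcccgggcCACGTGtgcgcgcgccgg
MXD4, chr4:2262330-2262359, minus strand: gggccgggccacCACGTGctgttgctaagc
They begin at positions -50, -193 and -238 from the respective starts. The flanks of the 3 E-boxes differ from one another, and the matches are descriptions of letters, not of binding.

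Levels in vehicle ranked MYC, MXD1, MNT, MLX, MAX, MXI1, MXD4, MLXIP, MGA and MXD3 from highest to lowest mean RPKM, a scale per gene length. Neighbours in this order overlapped between libraries except MXI1 over MXD4, MLXIP over MGA and MGA over MXD3. In DMOG the order began with MXD1, MYC, MXI1, MNT, MLX and MAX. MXD1 and MXI1 stood higher in this order than in vehicle. Over the DMOG libraries, the range of MXD1 overlapped that of MYC, MYC that of MXI1 and MXI1 that of MNT, while MNT lay wholly below MYC and MXD1. The plot of members by library shows the same values.

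**Figure D1:**
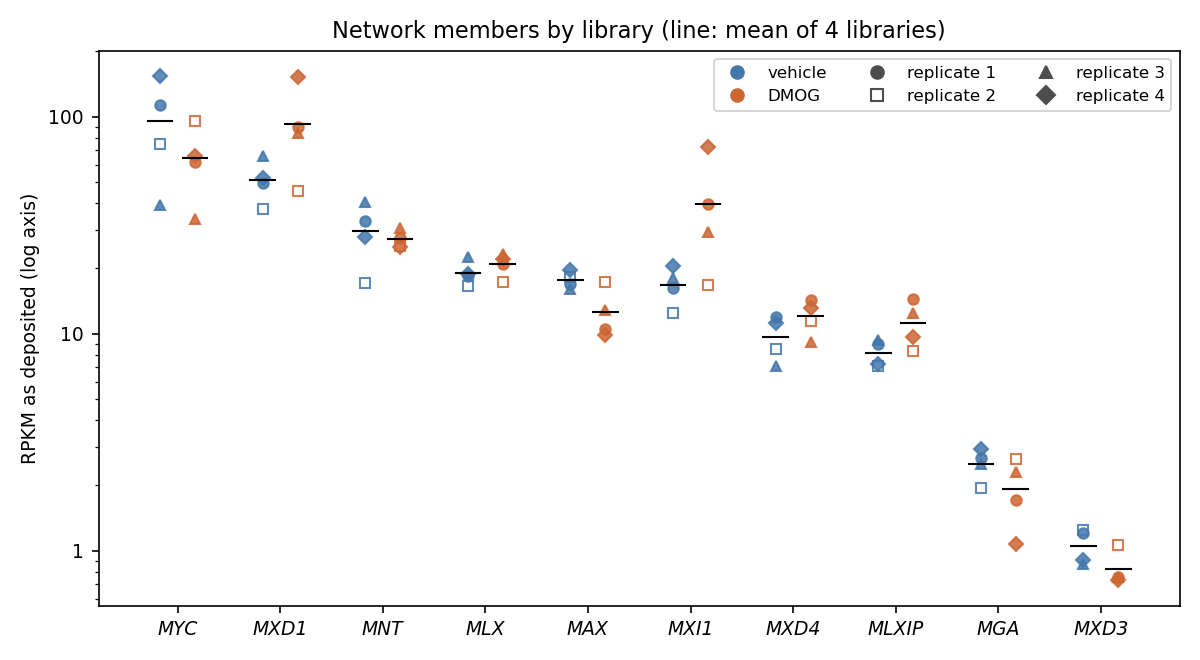
RPKM as deposited (log axis) of the 10 members in each library, vehicle in blue and DMOG in orange, with marker shapes for the replicate numbers and a line at the mean of 4 libraries. The MXI1 and MXD1 points of DMOG replicates 1, 3 and 4 lie above all vehicle points, and those of DMOG replicate 2 (open orange squares) lie among them.

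Over all 8 libraries, no member and no gene passed an adjusted p of 0.05 (limma-trend with Benjamini-Hochberg adjustment over 11122 tested genes; background 0% higher and 0% lower). With p unadjusted, 1556 genes (14.0%) lay higher and 1813 (16.3%) lower at the same threshold, and limma-voom on recovered reads also called 0. Among the members, MLXIP (unadjusted p = 0.0127), MXI1 (0.0154), MXD1 (0.0266) and MXD4 (0.0296) were under it by limma-trend, each with DMOG higher. Without DMOG replicate 2, 1724 genes (15.5%) were called higher and 1970 (17.7%) lower. The members called were then MXI1 (adjusted p = 0.00693), MLXIP (0.00695), MXD1 (0.00809) and MLX (0.020), all higher, and MAX (0.0353), lower.

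Over the 6 libraries, 4 of the 9 tested members rose (MXI1, MXD1, MLXIP and MLX) and none fell, where 13.7% of all tested genes were called higher and 16.1% lower. The members' median log2 fold change was 0.43, against 0.00 over all genes. These folds are on the scale log2(RPKM divided by a library factor, plus 1), which understates the change of low genes. With RPKM as deposited, the median of all genes stood at -0.26, 682 genes were called higher and 3836 lower, and the members called were MXI1 and MXD1, higher, and MAX, lower. The 4 rising members comprise 2 MXD repressors and both subunits of the MLX and MLXIP dimer.

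**Figure D2:**
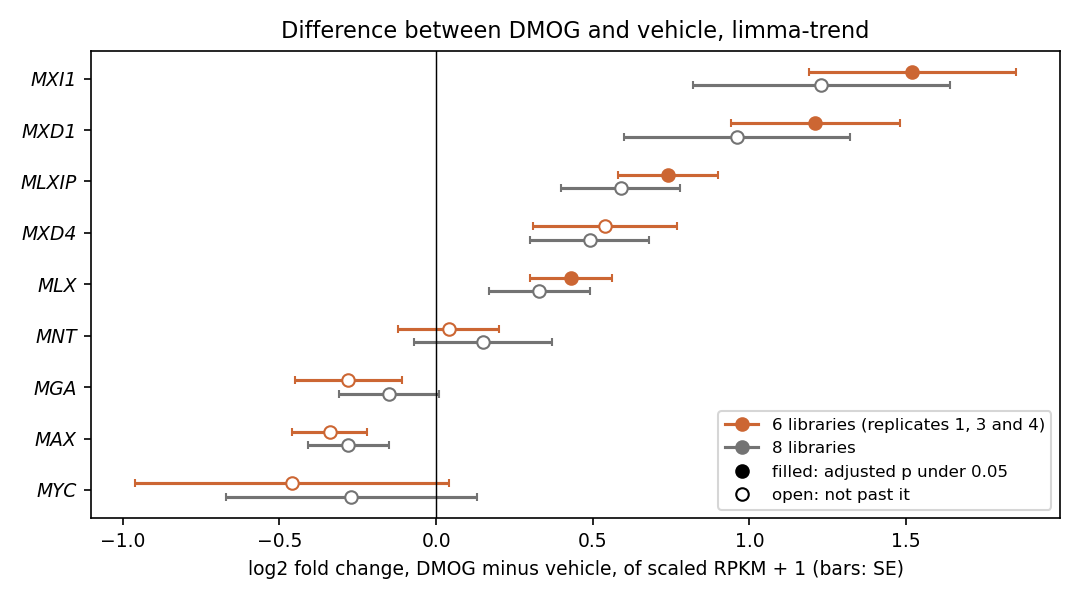
Log2 fold change of each tested member, DMOG minus vehicle, with its standard error, in the 6 libraries (orange) and all 8 libraries (grey). Filled points passed the adjusted p threshold of 0.05, and these are MXI1, MXD1, MLXIP and MLX in the 6 libraries.

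MYC itself (chromosome 8, 128748315 to 128753680, hg19, as are all gene positions below) varied more between vehicle libraries than between the groups. Its values were 113, 75.1, 39.0 and 154 RPKM in vehicle replicates 1 to 4 and 61.8, 95.5, 33.8 and 65.7 RPKM in DMOG replicates 1 to 4. The groups overlapped: the lowest vehicle library lay below 3 of the 4 DMOG libraries. The mean was 95.1 ± 49.3 (SD, n = 4) in vehicle and 64.2 ± 25.3 (SD, n = 4) in DMOG. The log2 fold change was -0.27 ± 0.40 (SE) over 8 libraries (limma-trend, adjusted p = 0.652) and -0.46 ± 0.50 over 6 (adjusted p = 0.504). For libraries of the same number, the DMOG to vehicle ratio of RPKM as deposited was 0.548, 1.27, 0.867 and 0.427 (numbers 1 to 4). MYC was thus lower with DMOG in 3 of 4 as deposited, where the median log2 fold change of all genes over 8 libraries was -0.18. Divided by the factors of the 8 libraries, replicate 3, the lowest of each group, read 36.5 in vehicle and 36.6 in DMOG. With the replicate number as a block in the 6 libraries, the SE fell to 0.17 and the adjusted p was 0.0747. In bulk RNA, fewer cells expressing a gene and less of its RNA per cell cannot be told apart, here and in every result below.

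MAX (chromosome 14, 65472819 to 65569413, minus strand), the obligate partner, read 17.0, 18.2, 16.0 and 19.6 RPKM in vehicle and 10.5, 17.3, 12.9 and 9.90 RPKM in DMOG. DMOG replicates 1, 3 and 4 lay below every vehicle library, and DMOG replicate 2 lay among them. The log2 fold change over 6 libraries was -0.34 ± 0.12 (limma-trend, adjusted p = 0.0637), a difference that missed the threshold. It passed with RPKM as deposited (-0.62, adjusted p = 0.0122), without DMOG replicate 3 (0.0235) and with vehicle replicate 2 added (0.0353). In the authors' deposited table MAX had a log2 value of -0.36 with an adjusted p of 0.0484. The MAX locus overlaps FNTB and CHURC1-FNTB on the opposite strand, and the sources used here do not say how reads were assigned by strand, so its level is uncertain to that extent.

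MXI1 (chromosome 10, 111967363 to 112047123, plus strand), which dimerizes with MAX against MYC, had the highest log2 fold change among the members. It read 16.2, 12.5, 18.1 and 20.5 RPKM in vehicle and 39.7, 16.8, 29.3 and 72.8 RPKM in DMOG. Every DMOG library except replicate 2 lay above every vehicle library. Over 6 libraries the mean went from 18.3 ± 2.16 to 47.3 ± 22.7 RPKM (SD, n = 3 each). The log2 fold change was 1.52 ± 0.33 (limma-trend, adjusted p = 0.0178) over 6 libraries and 1.23 ± 0.41 (adjusted p = 0.119) over 8. By replicate number the ratio was 2.45, 1.34, 1.62 and 3.55, above 1 in each of 4. The 6-library call ended when vehicle replicate 1 (adjusted p = 0.0697), 3 (0.0512) or 4 (0.0574) or DMOG replicate 1 (0.0564) was left out.

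MXD1 (chromosome 2, 70142173 to 70170076, plus strand), the MXD protein of differentiating keratinocytes, was the most abundant of its group. It read 49.4, 37.5, 65.7 and 52.1 RPKM in vehicle and 89.6, 45.6, 84.2 and 152 RPKM in DMOG. The pattern was that of MXI1: DMOG replicates 1, 3 and 4 above all vehicle libraries, and replicate 2 inside their range. Over 6 libraries the mean was 55.7 ± 8.71 RPKM in vehicle and 109 ± 37.8 RPKM in DMOG (SD, n = 3 each). The log2 fold change was 1.21 ± 0.27 (limma-trend, adjusted p = 0.0194). Over 8 libraries it was 0.96 ± 0.36 (adjusted p = 0.133). The call ended when vehicle replicate 1 (adjusted p = 0.0763) or 4 (0.0719) or DMOG replicate 1 (0.0519) was left out. MXD1 and MXI1 had a Pearson correlation of 0.98 over the 8 libraries, which share the treatment and its strength, so it is given as a description. Among the 11 suprabasal markers, FLG (log2 fold change 1.97, limma-trend, adjusted p = 0.0111) and CNFN (1.10, 0.0172) rose and TGM3 fell (-0.92, 0.0163) over 6 libraries. All tested genes gave 13.7% higher and 16.1% lower. With the replicate block 6 of the 11 rose and 1 fell, beside 19.6% and 21.0% of all tested genes. CNFN lost its call on leaving out replicate 1 of either group (0.0554 to 0.0702), and TGM3 on leaving out vehicle replicate 1 or 4 (0.0572 to 0.0594). Their part in the MXD1 result was not tested. MXD1 made up 60.9% to 71.6% of the summed RPKM of the 4 MXD genes in each library.

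MXD4 (chromosome 4, 2249160 to 2263739, minus strand), another MXD family repressor, read 11.9, 8.52, 7.10 and 11.2 RPKM in vehicle and 14.3, 11.4, 9.11 and 13.1 RPKM in DMOG. The groups overlapped, yet within each replicate number DMOG was higher, by ratios of 1.20, 1.34, 1.28 and 1.17. The log2 fold change over 6 libraries was 0.54 ± 0.23 (limma-trend, adjusted p = 0.113), and with the replicate block its SE was 0.09 and the adjusted p 0.0126, a call in the blocked fit (background 19.6% higher). It was also called without DMOG replicate 3 (0.0235). The ratio of replicate number 2 was the highest of the 4 for MXD4 and the lowest of the 4 for MXI1 and MXD1, as the plot by replicate number shows.

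**Figure D3:**
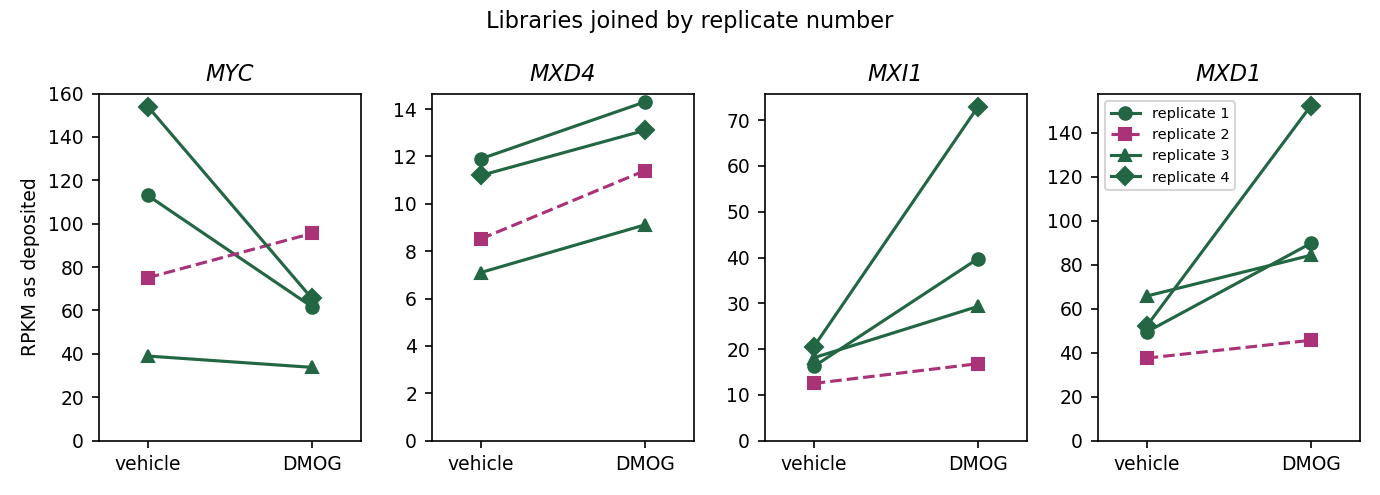
RPKM as deposited of MYC, MXD4, MXI1 and MXD1, with vehicle and DMOG libraries of the same replicate number joined (replicate 2 dashed). Lines for MXD4 run nearly parallel with ratios of 1.17 to 1.34, while those of MYC run down in replicates 1, 3 and 4 and up in replicate 2.

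MXD3 (chromosome 5, 176732501 to 176739292, minus strand), the MXD protein linked to S phase, stood at 1.20, 1.24, 0.871 and 0.910 RPKM in vehicle and 0.756, 1.06, 0.753 and 0.729 RPKM in DMOG. Only 72 to 136 reads per library lie behind these values, and 3 of the 8 libraries reached 1 RPKM, where the filter asks for 4. With a filter lowered to 0.3 RPKM its log2 fold change over 6 libraries was -0.05 ± 0.10 (limma-trend, adjusted p = 0.745). PRELID1 overlaps it on the opposite strand at 124 to 164 RPKM in vehicle and 68.6 to 131 RPKM in DMOG. The part of PRELID1 reads in the MXD3 values was not tested.

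MNT and MGA, the MAX partners outside the MXD family, did not pass the test in either comparison. MNT (chromosome 17, 2287354 to 2304258, minus strand) read 32.9, 17.1, 40.3 and 27.9 RPKM in vehicle and 27.5, 25.4, 30.8 and 25.2 RPKM in DMOG. The DMOG libraries lay within the vehicle range, and the log2 fold change over 6 libraries was 0.04 ± 0.16 (limma-trend, adjusted p = 0.874), with the opposite sign as deposited (-0.26). MGA (chromosome 15, 41952610 to 42062141, plus strand) read 2.67, 1.95, 2.50 and 2.94 RPKM in vehicle and 1.72, 2.64, 2.30 and 1.07 RPKM in DMOG. Its log2 fold change was -0.28 ± 0.17 (limma-trend, adjusted p = 0.236) over 6 libraries. DMOG replicate 4, which had the highest ENO2 and CA9, had the lowest MGA.

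MLX and MLXIP form the glucose-responsive arm. MLXIP (chromosome 12, 122516634 to 122631894, plus strand), the phosphosugar-responsive subunit, read 8.97, 7.10, 9.38 and 7.21 RPKM in vehicle and 14.4, 8.36, 12.5 and 9.68 RPKM in DMOG. DMOG replicates 1, 3 and 4 lay above every vehicle library. Its log2 fold change was 0.74 ± 0.16 over 6 libraries (limma-trend, adjusted p = 0.0166) and 0.59 ± 0.19 over 8 (adjusted p = 0.118). The 6-library call did not hold as deposited (0.0624), nor with vehicle replicate 1 (0.0610) or 4 (0.0647) or DMOG replicate 1 (0.0645) left out.

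MLX (chromosome 17, 40719078 to 40725221, plus strand), the shared DNA-binding partner, read 18.4, 16.5, 22.6 and 18.8 RPKM in vehicle and 20.9, 17.3, 23.4 and 22.0 RPKM in DMOG. The groups overlapped, and the ratio by replicate number was 1.04 to 1.17. After scaling, the log2 fold change over 6 libraries was 0.43 ± 0.13 (limma-trend, adjusted p = 0.0401). As deposited it was 0.14 (adjusted p = 0.346), so this call depends on the scaling. It also ended with no filter on low values (0.0693), and on leaving out vehicle replicate 1 (0.147) or 4 (0.14) or DMOG replicate 1 (0.0836), 3 (0.0547) or 4 (0.0736). The MLX locus overlaps PSMC3IP on the opposite strand, and the part of PSMC3IP reads in the MLX values was not tested.

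As deposited, the 6 libraries of 3 tested members did not overlap with DMOG higher (MXI1, MXD1 and MLXIP; background 9.99%) and those of 2 did not overlap with DMOG lower (MAX and MGA; background 45.6%). Over all 8 libraries each member's groups overlapped (background 2.27% higher and 12.8% lower). In the authors' deposited table, MXI1 had a log2 value of 1.70 with an adjusted p of 1.82e-05, MXD1 1.28 with 0.000154, MLXIP 0.82 with 0.000337 and MLX 0.45 with 0.0191. That table calls 18.8% of its 13424 genes higher and 17.6% lower, and it places MYC (log2 value -0.59, adjusted p = 0.319) and MXD4 (0.59, 0.0692) outside its threshold.

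The balance of MYC and its antagonists within a library was summarized by ratios of RPKM. The 4 MXD genes summed to 0.699, 0.796, 2.35 and 0.551 times MYC in vehicle and to 2.34, 0.784, 3.65 and 3.64 times MYC in DMOG. Vehicle replicate 3, with its low MYC, reached the level of DMOG replicate 1, and DMOG replicate 2 lay with the other vehicle libraries. MYC made up 49.6%, 48.8%, 22.5% and 57.1% of the summed RPKM of MAX's partners (MYC, the 4 MXD genes, MNT and MGA) in vehicle and 26.2%, 48.1%, 17.8% and 19.9% in DMOG. These partners together stood at 8.47 to 13.7 times MAX in vehicle and at 22.4, 11.5, 14.8 and 33.4 times MAX in DMOG. RNA levels do not give dimer amounts, and no test was made on these ratios.

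**Figure D4:**
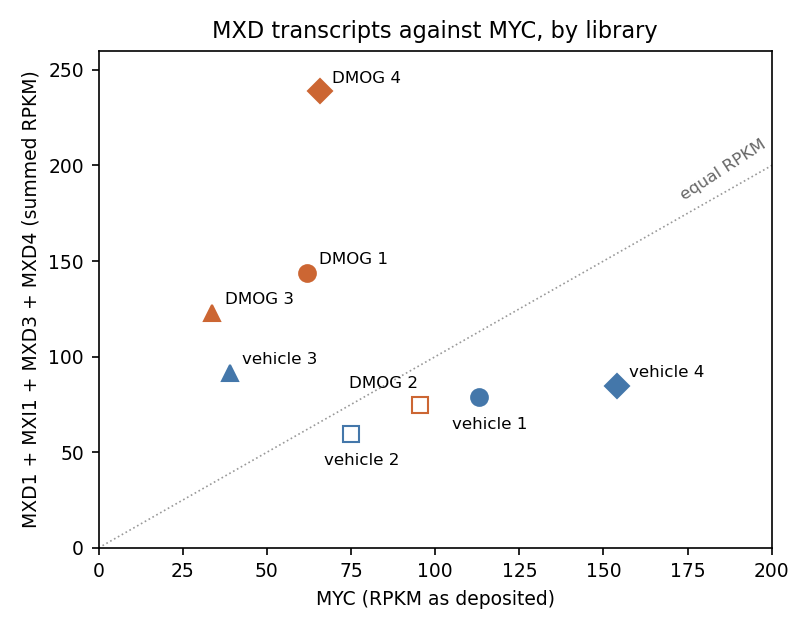
Summed RPKM of MXD1, MXI1, MXD3 and MXD4 against MYC RPKM in each library, with a dotted line at equal values. DMOG replicates 1, 3 and 4 and vehicle replicate 3 lie above the line, and the other vehicle libraries and DMOG replicate 2 lie below it.

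Network genes that are not members gave little. MYCL read 1.15 to 2.41 RPKM over the libraries, with a log2 fold change of 0.05 ± 0.21 over 6 (limma-trend, adjusted p = 0.873). MYCN was at 0 in 7 of 8 libraries and MLXIPL, the paralogue of MLXIP, at or below 0.0586 RPKM. PPARGC1B, a mitochondrial coactivator described as lowered through MXI1 in HIF-active cells, was under the filter: 0.616, 0.236, 0.210 and 0.588 RPKM in vehicle and 0.160, 0.50, 0.166 and 0.0503 RPKM in DMOG. DMOG replicates 1, 3 and 4 were the lowest of its 8 libraries, and no test was made.

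Genes that MYC is known to activate were mostly lower. Of 69 listed, 67 were tested, and over 6 libraries 38 fell, 1 rose and 28 did not pass, with a median log2 fold change of -0.87, against 16.1% lower among all genes and a median of 0.00. Their RPKM summed to 1978 to 2150.4 in vehicle and to 1125, 1915, 1319.8 and 878 in DMOG replicates 1 to 4. DMOG replicates 1, 3 and 4 lay below every vehicle library, and DMOG replicate 2 also lay below them by a smaller margin. These sums are of RPKM as deposited, not divided by library factors. On that scale the median log2 fold change of all genes over 8 libraries was -0.18. The sums also hold TERT, at 120.1 to 219.9 RPKM in vehicle and 157 RPKM in DMOG replicate 2. The small margin of DMOG replicate 2 is therefore not read as a difference from vehicle. The part of MYC in these values was not tested. Over 8 libraries the median was -0.65 and none was called. With RPKM as deposited 53 fell, where 3836 of all 11122 tested genes did, and without any filter 24 fell. On leaving out vehicle replicate 1, 3 or 4 the number that fell was 13, 20 or 14. Of all 11122 tested genes, 539, 1018 or 587 fell in these fits. Without DMOG replicate 1 it was 12, where 607 of all tested genes fell. Without DMOG replicate 3 or 4 it was 52 or 40, where 2527 or 1545 of all tested genes fell. With the replicate block it was 49, beside 21.0% of all tested genes.

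ODC1, ornithine decarboxylase and a classic MYC target of polyamine synthesis, read 17.6, 17.5, 23.5 and 23.6 RPKM in vehicle and 3.18, 11.9, 4.66 and 1.08 RPKM in DMOG. All DMOG libraries lay below all vehicle libraries, and the log2 fold change over 6 libraries was -2.36 ± 0.34 (limma-trend, adjusted p = 0.00690). SRM, spermidine synthase in the same pathway, averaged 40.4 ± 3.05 RPKM in vehicle and 10.2 ± 5.33 RPKM in DMOG (SD, n = 3 each), with a change of -1.71 ± 0.29 (limma-trend, adjusted p = 0.00914). MCM5, a replication helicase subunit, was the 1 that rose (0.53 ± 0.16, adjusted p = 0.0457), and it lost the call without any single one of the 6 libraries (adjusted p = 0.0636 to 0.123). TERT read 70.8 to 219.9 RPKM, and reads of the immortalizing transgene cannot be told apart from those of the gene. The members not tested were EIF4A1, listed at 0, and SLC29A2, below the filter.

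Of 9 genes that MYC is known to repress, 3 rose and none fell (NDRG1, CDKN1C and ITGA6; median 0.32), beside 13.7% higher and 16.1% lower among all genes. NDRG1, a stress gene that is also a well-known HIF target, averaged 618 ± 130.1 RPKM in vehicle and 1838 ± 1175 RPKM in DMOG (SD, n = 3 each), a change of 1.69 ± 0.47 (limma-trend, adjusted p = 0.0371). CDKN1C, the cell cycle inhibitor p57, had a log2 fold change of 1.48 ± 0.40 (limma-trend, adjusted p = 0.0330). CDKN1A, the inhibitor p21, did not pass (-0.10, adjusted p = 0.776). ITGA6 (log2 fold change 0.83, limma-trend, adjusted p = 0.00635) is also an integrin of basal keratinocytes. Of the 6 basal markers, 4 were called higher (KRT5, KRT14, COL17A1 and ITGB4) and 0 lower, beside the same 13.7% and 16.1%. TP63 (log2 fold change -0.28, limma-trend, adjusted p = 0.0859) and KRT15 (0.57, 0.133) did not pass. On leaving out 1 library, 0 to 4 basal markers were higher, where 379 to 2224 of all 11122 tested genes were. KRT5 and COL17A1 each lost the call on leaving out any of 5 libraries, and KRT14 and ITGB4 any of 4. Their adjusted p was then 0.0503 to 0.116 by limma-trend. As deposited, 1 basal marker was higher and 1 lower, where 682 and 3836 of all 11122 tested genes were. The part of these markers in the result was not tested. Of the 9 genes that MYC is known to repress, 1 rose without any filter. Without vehicle replicate 1, 3 or 4 or DMOG replicate 1 it was also 1. The NDRG1 and CDKN1C calls ended in all of these fits (limma-trend, adjusted p = 0.0570 to 0.117 on leaving out 1 library). Of all 11122 tested genes, 379, 864, 466 and 486 rose on leaving out these libraries. Without DMOG replicate 3 or 4 it was 4 or 3, where 2224 or 1313 of all tested genes rose. With the replicate block it was 4, beside 19.6% of all tested genes.

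Of 6 tested genes listed as targets of the MLXIP and MLX dimer, 2 rose, 1 fell and 3 did not pass (median 0.74). The shares over all genes were the same 13.7% and 16.1%. Whether each listed gene is a target in these cells was not tested. TXNIP, the arrestin-like glucose sensor gene best known as a MondoA target, read 209.5, 207, 138 and 219.9 RPKM in vehicle and 259, 254, 308 and 245 RPKM in DMOG. All DMOG libraries, replicate 2 included, lay above all vehicle libraries, with a log2 fold change of 0.84 ± 0.18 over 6 (limma-trend, adjusted p = 0.0158). The TXNIP call ended as deposited (adjusted p = 0.0642) and on leaving out replicate 1 of vehicle (0.0521) or of DMOG (0.0559). ARRDC4, its relative, read 43.8, 29.2, 27.0 and 54.8 RPKM in vehicle and 122, 52.9, 63.1 and 112 RPKM in DMOG. Its log2 fold change was 1.53 ± 0.33 (limma-trend, adjusted p = 0.0167), and the call ended on leaving out replicate 1 of vehicle (0.0586) or of DMOG (0.0665). G6PC3, a glucose-6-phosphatase, read 11.2, 11.9, 9.37 and 9.46 RPKM in vehicle and 3.93, 9.0, 4.02 and 2.60 RPKM in DMOG, and it fell over 6 libraries by 1.04 on the log2 scale (limma-trend, adjusted p = 0.00612). PFKFB3 (log2 fold change 1.55, adjusted p = 0.0643), ARRDC3 (0.64, 0.342) and KLF10 (0.35, 0.287) did not pass by limma-trend. PFKFB3 passed without DMOG replicate 3 (0.00808) and with vehicle replicate 2 added (0.0305), and ARRDC3 passed without DMOG replicate 3 (0.0395).

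Of 18 genes of the SIN3 and NCOR corepressors that MXD proteins and MNT recruit, 5 rose, 3 fell and 10 did not pass (median 0.24), where 13.7% of all tested genes rose and 16.1% fell. ING2, a chromatin reader of the SIN3 complex, had the highest fold of those that rose (log2 fold change 1.07 ± 0.27, limma-trend, adjusted p = 0.0269), and the histone deacetylase gene HDAC1 was among the others (0.37, 0.0342). BRMS1 (-0.49 ± 0.13, limma-trend, adjusted p = 0.0343), BRMS1L (-0.48 ± 0.14, 0.0389) and RBBP7 fell. The scaffolds SIN3A (0.23, adjusted p = 0.477) and SIN3B (0.24, 0.0976) did not pass. As deposited the split was 2 higher and 4 lower with a median of -0.04, where 682 and 3836 of all 11122 tested genes were called. Without any filter the split was 2 and 1. On leaving out vehicle replicate 1 or 4 or DMOG replicate 1 it was 0 and 0. All tested genes gave 379 and 539, 466 and 587, and 486 and 607 in these fits. Without vehicle replicate 3 it was 1 and 1, where 864 and 1018 of all tested genes were called. Without DMOG replicate 4 it was 2 and 1, where 1313 and 1545 were. Without DMOG replicate 3 it was 7 and 3, where 2224 and 2527 were.

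Of 21 genes for proteins that act with MYC, 2 rose, 4 fell and 15 did not pass (median 0.05), shares near the background of 13.7% higher and 16.1% lower. RUVBL1, an ATPase of the TIP60 and INO80 remodelling complexes, read 21.7, 19.9, 20.2 and 22.3 RPKM in vehicle and 4.09, 17.9, 9.29 and 1.96 RPKM in DMOG. All DMOG libraries lay below all vehicle libraries, with a log2 fold change of -1.80 ± 0.39 over 6 (limma-trend, adjusted p = 0.0171). KAT2A, the acetyltransferase GCN5, fell by 0.83 on the log2 scale (limma-trend, adjusted p = 0.0113), as did RUVBL2 and SMARCB1 by less. ZBTB17 (MIZ-1), the partner through which MYC represses, rose from 9.56 ± 0.429 to 16.1 ± 3.74 RPKM (SD, n = 3 each; limma-trend, adjusted p = 0.0133), and BIN1, an adaptor that binds MYC, rose by a log2 fold of 0.77 ± 0.12 (0.00832). As deposited 2 were higher and 8 lower, where 682 and 3836 of all 11122 tested genes were. On leaving out vehicle replicate 1 or 4 or DMOG replicate 1, lower calls numbered 0, 2 and 1 and higher calls 1, 1 and 2. Of all 11122 tested genes, 539, 587 and 607 were lower and 379, 466 and 486 higher in these fits. Without DMOG replicate 3, 4 were higher and 5 lower, where 2224 and 2527 of all tested genes were. With vehicle replicate 2 added, 5 were higher and 5 lower, beside 15.5% and 17.7% of all tested genes. RUVBL1 lost its call without vehicle replicates 1 or 4 or DMOG replicate 1 (adjusted p = 0.0606 to 0.0657), ZBTB17 without vehicle replicates 1 or 4 (0.0564 to 0.0584), and KAT2A without vehicle replicate 1 (0.0541) and with vehicle replicate 2 added (0.0965).

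The remaining lists held 1 call each, where 13.7% of all tested genes were called higher and 16.1% lower. Of 13 genes of the MGA complex, only RYBP was called, higher (0.56 ± 0.16, limma-trend, adjusted p = 0.0413). As deposited, 5 of the 13 were called lower and none higher, where 3836 of all 11122 tested genes were lower and 682 higher. Without DMOG replicate 3, 3 were higher and 3 lower, where 2224 and 2527 of all tested genes were. RYBP lost its call as deposited (0.150), without any filter and without vehicle replicates 1, 3 or 4 or DMOG replicate 1 (0.0693 to 0.126). Of 15 tested genes that set MYC protein stability, only SET, an inhibitor of the phosphatase PP2A, was called, lower (-0.59 ± 0.17, limma-trend, adjusted p = 0.0375). With the replicate block 2 of the 15 were higher and 2 lower, where 19.6% and 21.0% of all tested genes were. As deposited 3 of the 15 were lower, where 3836 of all 11122 were. SET lost its call without a filter and without any one of the 6 libraries other than DMOG replicate 3 (0.0571 to 0.108). The ubiquitin ligase gene FBXW7, which marks MYC for degradation, did not pass (0.13, adjusted p = 0.591).

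**Figure D5:**
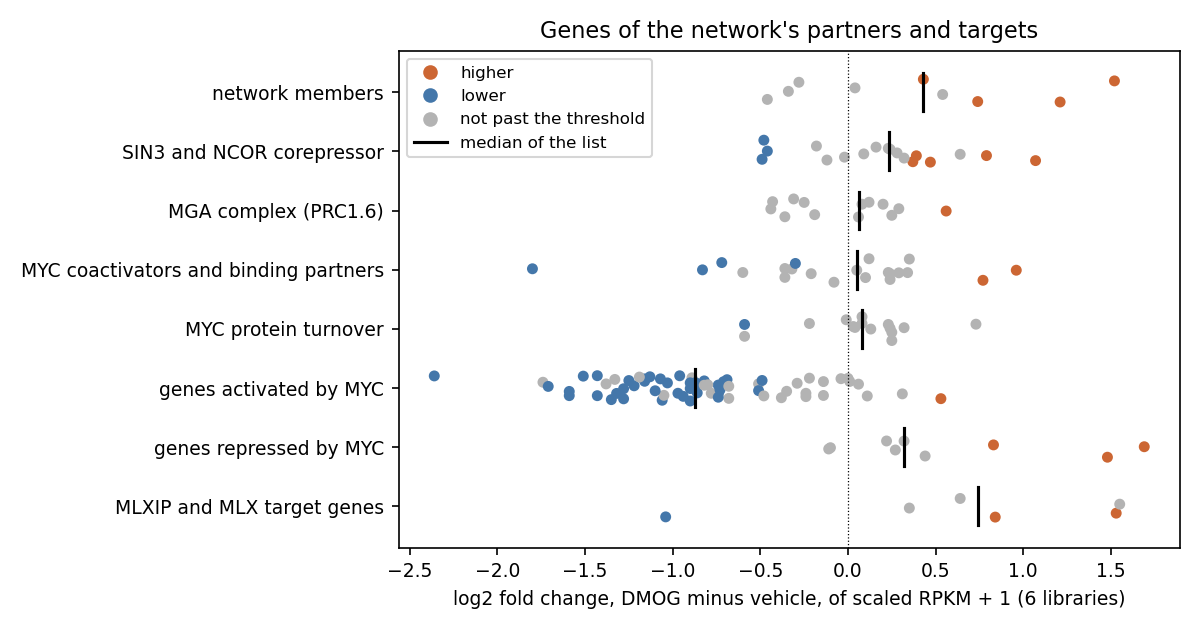
Log2 fold change over 6 libraries, DMOG minus vehicle, of each tested gene in the members' list and 7 lists of partners and targets; orange and blue points were called higher and lower, grey points were not, and a black line marks each list's median. The genes activated by MYC have a median of -0.87, and the medians of the other lists lie between 0.05 and 0.74.

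Genes whose pattern over the 8 libraries was most like that of a member were found by Pearson correlation of scaled log2 levels, as a description. For MYC they were LHPP (0.955), C2orf27A (0.947) and FUT10 (0.945), and 1 gene reached 0.95. For MXI1 they were STK35 (0.997), SLC25A29 (0.995) and MGEA5 (0.995), and 458 genes reached 0.95. For MXD1 they were SUPT5H (0.995), AFF1 (0.993) and FAM160A1 (0.992), and 277 genes reached 0.95. The MXI1 and MXD1 patterns were thus shared by many more genes than that of MYC. Across the members, MAX ran opposite to MXI1 (-0.89) and to MXD1 (-0.91) over these libraries, which share treatment and scaling.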

How the data were processed

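Per the labels, 4 vehicle and 4 DMOG libraries of EPC2-hTERT cells were sequenced from total RNA. The authors deposited RPKM values for 25369 genes. Per the submitters' processing notes, HTSeq 0.6.1, TopHat2 2.0.13, Picard 1.129, Bowtie2 2.2.3.0 and SAMtools 1.3.1 were among the tools, with no role or order given, and both GRCh37/hg19 and GRCh38/hg38 are named. Gene positions are those of the deposited table, whose coordinates are hg19. The authors' deposited table of their comparison gives, per the file headers, p-values (raw and adjusted), a ratio and its log2, and normalized signal means. The sources used here do not give the tool behind it. Those means were matched by averages over replicates 1, 3 and 4 of each group.

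RPKM values above 0 were whole reads within 0.01 reads for 100.0% of values, so library totals (31245695 to 39931833) could be recovered. Over the 28 library pairs, chi-square per degree of freedom was 20.7 to 413, so no library was a copy of another within sampling noise. RPKM was divided by median-ratio factors and tested as log2(value + 1) with limma-trend (limma 3.58.1, R 4.3.3, robust empirical Bayes, two-sided, Benjamini-Hochberg). Genes needed 1 RPKM in at least 4 of 8 libraries. The script was tested on simulated data. Alternatives were RPKM as deposited, other factors, pseudocounts of 0.1 and 0.5, other filters, limma-voom on recovered reads (1556 higher and 1789 lower over 6 libraries), the replicate block and each library left out. Same-numbered libraries deviated together in the 6 libraries (correlations of 0.47, 0.40 and 0.34 for numbers 1, 3 and 4), which comes from the data and not from a stated batch. In the 8 libraries they were 0.07, -0.02, 0.53 and 0.24.

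The members and lists were chosen with earlier results of these data known. Named genes are all members, the 2 highest and 2 lowest called genes of each list, every gene of a list of 6 or fewer, and 3 genes per likeness search; others named were picked with values known, and some genes are not reported here. A planned comparison of protein sequences was not run. GCGTG was added as a motif after the data were seen. WDR5 and CBX3 each stand in 2 lists.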

Additional observations from a re-analysis of the deposited data

Results flagged for a closer look

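In the 20 groups of 4 libraries tested (10 members in 2 treatments), 1 library stood apart from the rest of its group. MXD3 in DMOG replicate 2, at 1.06 RPKM against 0.729 to 0.756 in the other DMOG libraries, had a gap of 0.918 of the group's range, above Dixon's 95% critical value for 4 samples. Chance gives about 1 in 20 such groups. DMOG replicate 2 is also the DMOG library with CA9 and ENO2 near their vehicle levels.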

How the results depend on the processing

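Over 8 libraries, leaving out 1 library gave 0 to 1724 genes higher and 0 to 1970 lower, and 0 to 4 members higher and 0 to 1 lower; the highest counts came without DMOG replicate 2. Over 6 libraries, RPKM as deposited gave 682 and 3836 genes and 2 and 1 members. Leaving out 1 library gave 379 to 2224 genes higher and 539 to 2527 lower, and 0 to 4 members higher and 0 to 1 lower, and adding vehicle replicate 2 gave 1 member lower. The lowest counts came without vehicle replicate 1 (379 and 539), vehicle replicate 4 (466 and 587), DMOG replicate 1 (486 and 607) and vehicle replicate 3 (864 and 1018); such fits hold fewer samples. Within 50 bases of the start, ACGTG stood in 3 member windows, GCGTG in 5 and CACGTG in 1, and in 8.23%, 16.0% and 2.82% of all windows.

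Signs reversed for 3 genes. MNT over 8 libraries went to -0.058 as deposited and -0.052 without vehicle replicate 2, and over 6 to -0.258 as deposited, -0.109 without vehicle replicate 4 and -0.017 without DMOG replicate 3; leaving out 1 library reached up to 0.316 over 8 and 0.187 over 6. MCM5 over 8 libraries went to -0.037 as deposited and -0.073 without vehicle replicate 4, and up to 0.443 without vehicle replicate 2. MYCL over 8 went to -0.088 as deposited, -0.075 without vehicle replicate 3 and -0.036 without DMOG replicate 4, and over 6 to -0.148, -0.14 and -0.081, with highest values of 0.158 and 0.208 without DMOG replicate 3. The cause was not tested. The replicate block over 6 libraries gave 2181 genes higher and 2337 lower and 5 members higher, the fifth being MXD4 (log2 fold change 0.54, adjusted p = 0.0126), and changed no other member's call. MXD3, at 72 to 136 reads per library, is limited by depth.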

Other observations

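The replicate 3 libraries shared a pattern that cuts across treatment, seen after the values were known and not tested. They held the lowest MYC of their groups (39.0 RPKM in vehicle, 33.8 RPKM in DMOG) and the highest MNT (40.3 and 30.8 RPKM) and MLX (22.6 and 23.4 RPKM). KRT10, a keratin of cornifying epidermal layers, read 497 RPKM in vehicle replicate 3 and 839 RPKM in DMOG replicate 3, against 105 to 331 RPKM in the other libraries. KRT1, its partner keratin, read 211 and 373 RPKM there against 38.0 to 90.3 RPKM elsewhere, and KRT13, an esophageal suprabasal keratin, 1376 and 1340 RPKM against 272 to 639.8 RPKM. These were picked with their values known. Replicate 3 was the highest vehicle library for 4 of the 11 suprabasal markers and the highest DMOG library for 9. It was the highest library of both groups for 4 and not for the other 7. TGM3, for example, was lowest of the vehicle libraries there (53.8 RPKM), and FLG read 1.73 RPKM in vehicle replicate 3 against 5.06 RPKM in vehicle replicate 4. The labels name no batch for this number.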
